A study of Mus musculus with 31 samples.

Results

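Some genes stood on several lines of the hippocampal expression table. The table gave 1 FPKM value per assembled locus and mouse, and a locus is a stretch of the genome in which overlapping transcripts were merged into 1 unit. Of 27094 loci, 24643 carried exactly 1 gene name, and of 23007 gene names 2341 stood on more than 1 locus. For each of these names the locus that was highest on average over all mice was set aside as the first locus. This left 3981 loci with 1 name, of which 1693 did not have an FPKM above 1 in at least 10 mice. The remaining 2288 loci, from 1339 gene names, are the members described here. No difference between groups was used to choose them.

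The 31 libraries came from hippocampi of male mice of the C57BLKS/J strain, labelled as 3 months old, with 1 library per mouse. The db/m group (11 mice) was heterozygous for the db allele of the leptin receptor gene, and the db/db group (10 mice) was homozygous and diabetic. The db/db-IF group (10 mice) was also db/db and was fasted on alternate days (intermittent fasting), while the other groups fed freely. Group sizes are those of the sample labels, and the text of the study gives other sizes for both db/db groups. Fasted db/m mice were not analysed here, so an effect of fasting could be read in db/db mice alone. Total RNA was sequenced from whole hippocampal tissue, in which fewer cells of a type and less RNA per cell cannot be told apart.

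The libraries were alike in total. Correlations between mice over the tested loci ran from 0.921 to 0.984, and 15 of 15 marker genes of hippocampal subfields had a mean FPKM above 1. The locus of Lepr, the leptin receptor gene that the db allele changes, was low in every mouse, between 0.07 and 0.58 FPKM. Marker genes of the choroid plexus, a tissue next to the hippocampus, summed to between 674.8 and 33080 FPKM, with overlapping ranges in the 3 groups, and no member carried one of these markers. Mouse 7 of db/db-IF and mouse 10 of db/db stood apart most often in single members, and counts without both are given where they differ. Without db/db mouse 10 alone 1337 members were higher and 337 lower in db/db-IF, the main comparison below.

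A gene can be split over several loci when parts of it are covered by reads but not joined by them. Very long genes of the nervous system have introns that span most of their length, and RNA that has not been spliced, RNA from alternative starts and short separate transcripts can all be assembled apart from the spliced messenger RNA. Reference assemblies of the mouse also hold extra sequences beside the chromosomes, such as unplaced pieces, fixes and versions of a region from other strains. A gene on such a sequence has a second copy in the assembly without being duplicated in the animal. C57BLKS/J mice are inbred and descend mainly from C57BL/6J, the reference strain, with a part from DBA/2J.

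The table gave no coordinates for the loci, but their numbers followed the genome: 99.6% of 14040 genes on 1 locus lay on the chromosome of most of their 20 nearest loci by number. By this numbering 1822 members stood within 100 numbers of their first locus and are called neighbours. A further 417 members belonged to pairs in which the member or its first locus was numbered after the last locus of chromosome Y and outside the mitochondrial loci. Such loci were taken to lie on extra sequences of the assembly, which the table does not name, and all values given for extra copies rest on this reading. Another 43 were distant from their first locus, and 6 had no number to compare. The numbering does not show whether a neighbour covered an exon, an intron or an untranslated region.

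Members were low beside their first loci. Their median mean FPKM was 3.92, against 32.2 for the 1328 first loci that were tested and 12.4 for 11273 genes on 1 locus. The median member had 13.3% of the mean FPKM of its first locus, 982 members had under 10% of it and 369 had at least 50%. FPKM is scaled per length, so these are levels per base and not totals. Neighbours (median 3.43) were lower than members of extra-sequence pairs (median 8.09), and 1503 of all members were above 1 in every mouse.

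Neighbours came from long genes. With each gene name counted once, the median span of the gene on the chromosome was 119 kb for 956 names with neighbours, 15.6 kb for 327 names in extra-sequence pairs and 20.9 kb for genes on 1 locus. Counted once per neighbour the median was 338 kb, since long genes held many of them. Neighbours also varied more between mice of a group, with a median standard deviation (SD) of 0.289 on the log2 scale against 0.162 and 0.163. Across the 31 mice, after removal of group means, the median correlation of a neighbour with its first locus was 0.06, while that of pairs of neighbours of the same gene was 0.81 over 4328 pairs. Genes with more members count in more of these pairs. Neighbours of all genes also shifted together from mouse to mouse. The SD of their median deviation within a group was lowest for db/m (0.13) and highest for db/db-IF (0.33). Neighbours of different genes were not paired, so whether the 0.81 is particular to a gene was not tested. Members of extra-sequence pairs correlated with their first locus at a median of 0.50. These are descriptions over mice that share a gene, and they carry no test.

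Most of the 1339 gene names had 1 member (999), and 278 had 2 to 4. A further 39 had 5 to 9, and 23 had 10 or more and together held 363 members. The 6 names with the most members were Kcnip4 (35 members), Rbfox1 (30), Magi2 (29), Lrrc4c, Lrrtm4 and Robo2 (19 each). Kcnip4 encodes a subunit of A-type potassium channels and spans chr5:48389503-49525122 in GRCm38, 1136 kb. Rbfox1 encodes a splicing regulator of neurons and lies at chr16:5884793-7412480, and Magi2 encodes a synaptic scaffold protein at chr5:19219387-20704792. Lrrc4c, a netrin-G ligand, and Lrrtm4, a postsynaptic adhesion protein, lie at chr2:96318169-97631672 and chr6:80018858-80810162. Robo2, a receptor for the guidance cue Slit, lies at chr16:73891976-75447443.

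The members of these long genes together could exceed the first locus. Summed over loci and averaged over mice, the 35 members of Kcnip4 reached 705.9 FPKM, 254.1% of the 277.8 FPKM of its first locus. Single members of Kcnip4 had means from 1.04 to 158.3 FPKM. The sum for Magi2 was 1572 FPKM against 743.6 at the first locus, and that for Rbfox1 was 220.7 against 325.3. FPKM values of separate loci add up only as levels per base, so such a sum is not the RNA of the gene.

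The main comparison set db/db-IF mice against the other 2 groups combined. The comparison group contains the db/m mice, so a difference is that of genotype and fasting together. Counts for db/db-IF against db/db alone are given below. Members were mostly higher in db/db-IF. Of 2288 members 1306 (57.1%) were higher and 329 (14.4%) lower at an adjusted p under 0.05, against 26.8% higher and 30.9% lower (57.7% in all) of the 17139 tested loci (limma, two-sided, Benjamini-Hochberg over all tested loci). The median log2 fold change was 0.30 over members and -0.03 over all tested loci. Among neighbours 1179 of 1822 (64.7%) were higher and 224 (12.3%) lower. Among members of extra-sequence pairs 116 of 417 (27.8%) were higher and 87 (20.9%) lower, shares closer to those of all loci. Of 663 loci without a gene name, which were as low as members (median 3.18 FPKM), 33.2% were higher and 29.1% lower.

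First loci of the same genes leaned the other way. Of the 964 tested first loci of neighbours 172 (17.8%) were higher in db/db-IF and 421 (43.7%) lower, with a median log2 fold change of -0.17. The ratio of member to first locus within each mouse was tested as its own quantity, and 1152 of 2287 ratios (50.4%) were higher and 275 (12%) lower in db/db-IF. For neighbours these counts were 1098 and 226 of 1821, with a median difference of 0.50 on the log2 scale. For members of extra-sequence pairs they were 43 and 41 of 417. In 472 neighbours the member was higher while its first locus was lower, in 172 both were higher, and in 65 the member was lower while the first locus was higher.

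**Figure D1:**
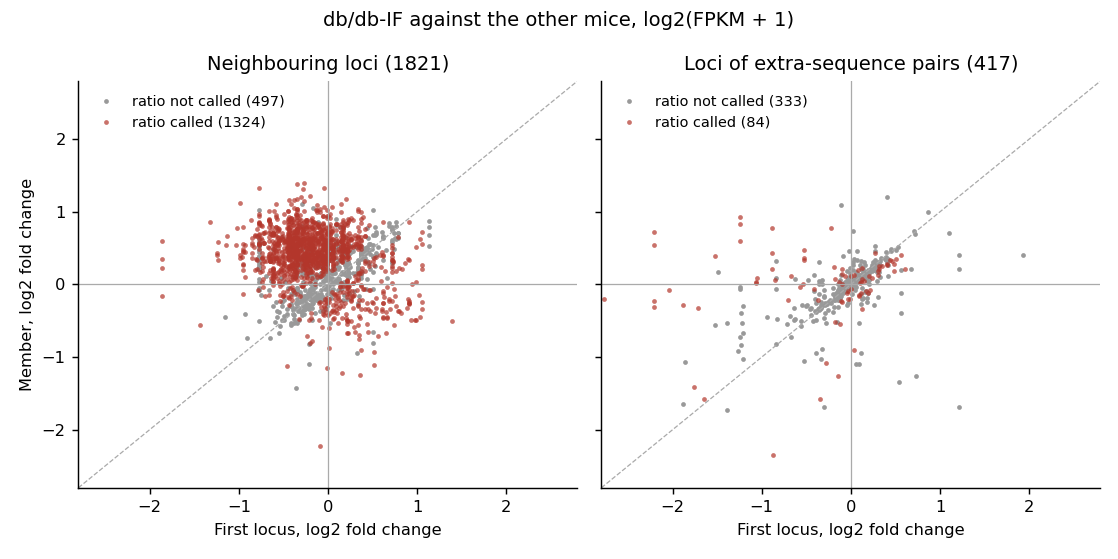
Log2 fold change of each member (vertical axis) against that of its first locus (horizontal axis) in db/db-IF mice against the others, on the log2(FPKM + 1) scale, with neighbours on the left and members of extra-sequence pairs on the right; red points are pairs whose ratio was called, and the dashed line marks equal change. Among 1821 neighbours 1098 called ratios lie above the line and 226 below it, against 43 and 41 of 417 in extra-sequence pairs.

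The difference had a companion in the libraries themselves. In each mouse the tested genes on 1 locus were set against log2 transcript length, and the slope of their deviation from the mean over mice was taken. Slopes ran from 0.0025 to 0.086 in db/m mice, between -0.044 and 0.073 in db/db mice and between -0.24 and -0.044 in db/db-IF mice, so that longer transcripts had lower values relative to the mean over mice in every db/db-IF library. Mouse 8 of db/db-IF (-0.0442) and mouse 10 of db/db (-0.0444) gave the only overlap between db/db-IF and the rest. When this slope entered the fit, 3 members were higher and 2 lower in db/db-IF, and of all tested loci 0.712% were higher and 0.158% lower. The median log2 fold change of members then was 0.05. The slope and the fasted group overlapped so closely that their parts in the difference cannot be told apart, and this holds for each db/db-IF comparison below.

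The 5 members that kept a call with the slope in the fit were chosen for naming from their values. Higher were Ehmt2 (locus MSTRG.27791, by 0.26), a histone methyltransferase gene, Atg2a (by 1.72), a gene of autophagosome formation, and March2 (by 0.41), a ubiquitin ligase gene. Lower were Extl2 (-0.27), a glycosyltransferase gene, and Gprin3 (-0.37). All 3 that were higher belonged to extra-sequence pairs and both that were lower were neighbours.

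**Figure D2:**
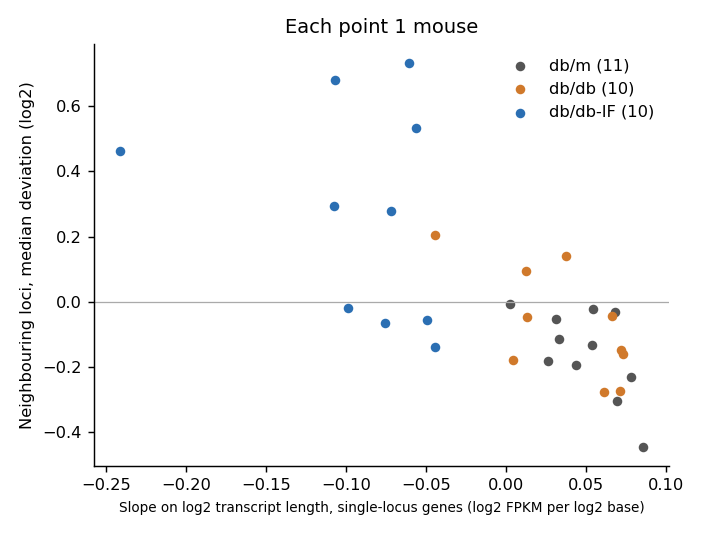
Median deviation of the 1822 neighbours from their mean over mice (vertical axis, log2) against the slope of genes on 1 locus on log2 transcript length (horizontal axis, log2 FPKM per log2 base), 1 point per mouse and a colour for each group. The db/db-IF mice lie to the left, with deviations from -0.14 to 0.73, while db/m mice lie between -0.44 and -0.01 and db/db mice between -0.28 and 0.21. Mice 6, 8, 9 and 10 of db/db-IF have deviations below 0, within the db/m range. In db/db-IF mouse 7 has the lowest slope (-0.24) and a deviation of 0.46, while mouse 1 has a slope of -0.06 and the highest deviation.

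The median share of members in the whole signal was also largest in db/db-IF. Their share of the summed FPKM was 1.59% to 1.89% in db/m (median 1.74%), 1.73% to 2.12% in db/db (median 1.84%) and 1.76% to 2.75% in db/db-IF (median 2.16%). The ranges of the 3 groups overlapped, and mice 6, 8, 9 and 10 of db/db-IF (1.76% to 1.86%) lay within the db/m range. Summed FPKM of members of extra-sequence pairs differed little, with medians of 9802, 10170 and 10100 (here and below, values of the 3 groups are ordered as db/m, db/db, db/db-IF).

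Among members that were higher, the 10 with the largest change were all neighbours. Cds2, an enzyme of phosphatidylinositol synthesis, had a member (MSTRG.3148, chromosome 2) between 2.91 and 17.0 FPKM in db/m (median 10.5), between 6.44 and 16.7 in db/db (median 11.2) and between 14.8 and 47.7 in db/db-IF (median 25.02). The db/db-IF mice overlapped the others only between 14.8 and 17.0 FPKM, while db/m and db/db overlapped over most of their ranges. The log2 fold change was 1.398 (standard error (SE) 0.21, adjusted p = 2.91e-06, limma), and that of the first locus was -0.26 (adjusted p = 0.00296). The ratio to the first locus rose by 1.66 (adjusted p = 5.16e-06).

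Camk2b encodes the beta subunit of the calcium and calmodulin dependent kinase II, an abundant kinase of excitatory synapses. Its member on chromosome 11 ran from 42.3 to 85.1 FPKM in db/m mice (median 75.3), between 50.9 and 121 in db/db mice (median 83.6) and between 110.5 and 374.9 in db/db-IF mice (median 197.2). Only the lowest db/db-IF mice overlapped the highest db/db mice. The log2 fold change was 1.38 (SE 0.16, adjusted p = 4.98e-08, limma). The first locus, at medians of 10470, 10830 and 8222 FPKM in the 3 groups, was lower by 0.35 on the log2 scale (adjusted p = 0.0123).

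Plpp3, a phospholipid phosphatase enriched in astrocytes, had a member on chromosome 4 with medians of 10.1, 10.9 and 31.3 FPKM in the 3 groups and ranges of 5.91 to 16.9, 7.76 to 22.7 and 13.6 to 58.4. The db/db-IF group was high, with overlap at its lower end. The member was higher by 1.33 (SE 0.19, adjusted p = 1.06e-06) while the first locus, with ranges of 1870 to 2486, 1640 to 2400 and 893.3 to 1529 FPKM, was lower by 0.77 (adjusted p = 4.97e-09). At the first locus no db/db-IF mouse reached the values of the other groups. The summed FPKM of 15 astrocyte markers was 3940 to 6115 in db/m, 4694 to 6235 in db/db and 2942 to 4631 in db/db-IF, with each marker above 0. Of the 14 tested 8 were lower in db/db-IF, beside 30.9% of all tested loci. The part of these astrocyte values in the change of Plpp3 was not tested.

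Channels of excitable membranes were represented by Scn8a, a voltage-gated sodium channel of axons, and by Ryr2, a calcium release channel of the endoplasmic reticulum. The Scn8a member (chromosome 15) ran from 3.11 to 7.38 FPKM in db/m mice (median 5.07), between 2.39 and 7.55 in db/db mice (median 3.71) and between 6.19 and 25.3 in db/db-IF mice (median 12.4). It was higher in db/db-IF by 1.33 (SE 0.16, adjusted p = 9.69e-08), and its first locus changed by -0.04 (adjusted p = 0.326). The Ryr2 member (chromosome 13) had medians of 12.6, 11.9 and 32.2 FPKM in the 3 groups and was higher by 1.21 (adjusted p = 2.26e-07), with a first locus that was lower by 0.30 (adjusted p = 0.000402). In both genes the lower end of db/db-IF overlapped the upper end of db/db.

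Pdzd2 encodes a protein with PDZ domains. Its member on chromosome 15 lay between 1.42 and 4.37 FPKM in db/m (median 2.70), between 1.81 and 5.67 in db/db (median 3.43) and between 5.81 and 16.1 in db/db-IF (median 9.0), with no overlap between db/db-IF and the rest. It was higher by 1.32 (SE 0.16, adjusted p = 1.04e-07), and the first locus changed by -0.28 (adjusted p = 0.106). Tmem131 (1.21, adjusted p = 1.22e-05), a second member of Magi2 (MSTRG.6900, 1.17, adjusted p = 1.36e-06), the GTPase activator Arhgap39 (1.17, adjusted p = 6.52e-07) and the transcription factor Bcl11b (1.17, adjusted p = 7.4e-07) completed these 10. Of these 4 first loci that of Arhgap39 was also called higher (0.21, adjusted p = 0.000335), that of Bcl11b was called lower (-0.38, adjusted p = 0.0241), and the other 2 were not called.

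**Figure D3:**
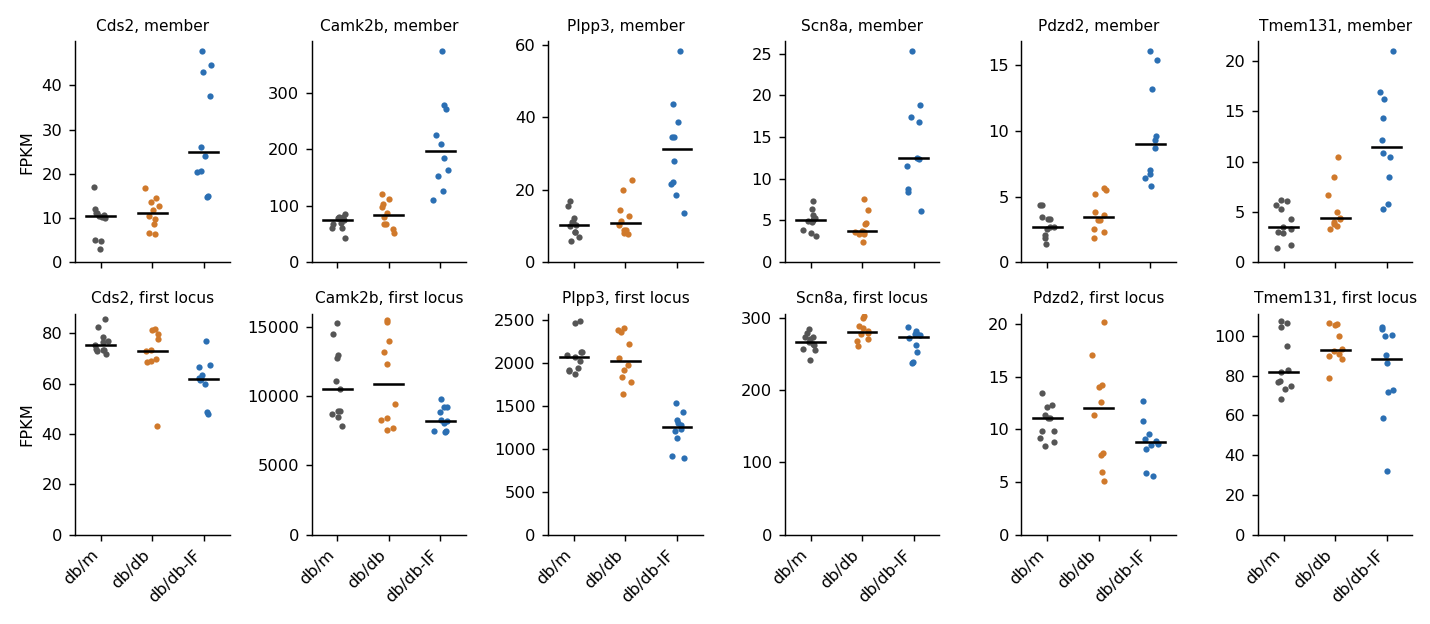
FPKM of 6 members with the largest rise in db/db-IF (upper panels) and of their first loci (lower panels), each point 1 mouse and each bar the group median, with every vertical axis starting at 0. The members are high in db/db-IF in each gene, while the first loci of Plpp3 and Cds2 have lower medians there, 1249 and 62.0 FPKM.

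The members with the largest fall had another pattern, since 8 of 10 belonged to extra-sequence pairs and 9 of 10 were listed at 0 in at least 1 db/db-IF mouse. Auts2, a gene of neuronal development, had a member at 32.3 to 43.5 FPKM in db/m (median 37.3), at 0 to 42.4 in db/db (median 38.0) and at 0 to 35.2 in db/db-IF (median 12.9). In db/db only 1 mouse was listed at 0, the next being at 27.6. The log2 fold change was -2.35 (SE 0.62, adjusted p = 0.00166). Rab11b, a GTPase of recycling endosomes, had medians of 46.1, 49.5 and 43.2 FPKM in the 3 groups and a fitted change of -1.73 (adjusted p = 0.00833). The lowest db/db-IF mouse was listed at 0 although the median of that group was close to the others. Values of exactly 0 beside high values in other mice may not be levels, so these fitted changes are not bounds.

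The others of this kind were Hipk1, a protein kinase (-1.69, adjusted p = 0.0162), Kcnj6, a subunit of G protein gated potassium channels (-1.65, adjusted p = 0.00225), Zfp37 (-1.58, adjusted p = 3.22e-05) and Slc30a1, a zinc exporter (-1.58, adjusted p = 0.00241). Ets2, a transcription factor, fell by 1.41 (adjusted p = 0.024) and Tm7sf3 by 1.35 (adjusted p = 0.00486). The call was lost for Hipk1 without db/db-IF mouse 5 or mouse 6 (-1.32 in both) and for Ets2 without db/db-IF mouse 5 or mouse 7 (-0.87 in both). For Slc30a1 the member and its first locus had alike values, with medians of 11.9, 12.1 and 7.66 FPKM for the member and 13.8, 14.0 and 8.88 for the first locus in the 3 groups.

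Sv2c and Naaladl2 were the neighbours in this group. Sv2c encodes a synaptic vesicle glycoprotein, and its member (MSTRG.19967, chromosome 13) lay between 17.5 and 27.8 FPKM in db/m (median 20.3), between 0.21 and 22.1 in db/db (median 8.11) and between 0.30 and 14.8 in db/db-IF (median 0.63). Both db/db groups thus reached values near 0 that no db/m mouse had. The log2 fold change in db/db-IF against the others was -2.22 (SE 0.60, adjusted p = 0.00224), while the first locus, with medians of 62.3, 69.9 and 62.6 FPKM, changed by -0.09 (adjusted p = 0.121). The Naaladl2 member was lower by fit (-1.42, adjusted p = 0.0156) although its median was higher in db/db-IF (22.5 FPKM) than in db/m (17.6) or db/db (17.6), and the call was lost without db/db-IF mouse 7 (-1.11).

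Gucy1a2, a subunit of the nitric oxide receptor guanylate cyclase, had 3 neighbours among the 6 ratios to the first locus that rose with the smallest p. Its locus MSTRG.13248 had 3.72 to 6.47 FPKM in db/m (median 5.12), 4.55 to 6.80 in db/db (median 5.80) and 6.21 to 14.2 in db/db-IF (median 8.90), while the first locus had medians of 20.3, 23.4 and 11.7. Member and first locus thus moved apart, by 0.64 and -0.86 on the log2 scale, and the ratio rose by 1.499 (SE 0.14, adjusted p = 6.91e-09). The same ratio rose by 1.22 and 1.29 at the loci MSTRG.13247 and MSTRG.13240, which share this first locus and so are not independent. The locus MSTRG.13247 was above 1 FPKM in 8 db/db-IF mice and 4 db/db mice and in no db/m mouse, so it passed the filter mainly through the group where it was high, and its value is a description.

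Kcmf1, a ubiquitin ligase gene, resembled Gucy1a2: its member had medians of 7.89, 7.93 and 10.2 FPKM in the 3 groups and its first locus 27.2, 29.3 and 12.7, and the ratio rose by 1.34 (adjusted p = 7.62e-09). For Grb2, an adaptor of receptor tyrosine kinases, the member rose from medians of 5.74 and 6.65 FPKM in db/m and db/db to 9.81 in db/db-IF, and the ratio rose by 0.72 (adjusted p = 1.29e-08). Farp1, a guanine nucleotide exchange factor of dendrites, had a member at medians of 0.73, 0.77 and 1.47 FPKM in the 3 groups and a ratio higher by 0.87. This member was above 1 FPKM in 10 db/db-IF mice and in 1 mouse of each other group, so it passed the filter through the group where it was high and its ratio is a description with no test. The first loci of Grb2 and Farp1 carry a further gene name each, Gga3 and B930095G15Rik, so their values are not those of 1 gene.

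Among the 6 ratios that fell most clearly a rise of the first locus took part, but for Emc2 most of the fall lay in the member. Wnk3, a kinase that regulates chloride transport, had a member on chromosome X between 22.8 and 30.5 FPKM in db/m (median 27.7), between 19.9 and 29.4 in db/db (median 25.4) and between 10.7 and 21.6 in db/db-IF (median 17.1), against a first locus with medians of 52.5, 52.2 and 73.4. The first locus did not overlap between db/db-IF, at 64.2 FPKM or more, and the other mice, at 61.5 or less. The ratio fell by 1.11 (SE 0.10, adjusted p = 5.26e-09). Fgf14, which encodes a partner of sodium channels, had a first locus at medians of 15.6, 15.6 and 34.5 FPKM and ratios lower by 0.85 and 0.79 at its members MSTRG.21307 and MSTRG.21302. Neither member fell itself, and MSTRG.21302 was called higher by 0.27 (adjusted p = 0.0254), a call that was lost without db/db-IF mouse 1 (0.19), 5 (0.22) or 11 (0.24).

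Emc2, of the membrane protein insertion complex of the endoplasmic reticulum, had a member at medians of 1.52, 1.51 and 0.98 FPKM in the 3 groups that fell by 0.36 (adjusted p = 4.78e-09), and the ratio fell by 0.45. Snx14, a sorting nexin, had a member at 4.29, 4.17 and 3.08 FPKM that fell by 0.37 (adjusted p = 8.18e-08) while its first locus rose by 0.47. For Nlgn1, an adhesion protein of excitatory synapses, the member MSTRG.3927 was higher by 0.26 (adjusted p = 0.0299) and the first locus by 0.72 (adjusted p = 1.31e-05), so the ratio fell by 0.47. The call of this Nlgn1 member was lost without db/db-IF mouse 1 (0.19), 2 (0.23), 5 (0.21) or 11 (0.21).

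The share of neighbours that were higher was larger for longer genes, up to a span of 500 kb. It was 24.4% for genes up to 20 kb, 44.1% from 20 to 50 kb, 61.2% from 50 to 100 kb, 68.0% from 100 to 200 kb, 73.8% from 200 to 500 kb and 72.1% above 500 kb, while the share that was lower declined from 31.9% to 5.02%. Genes on 1 locus had the opposite order, with 32.7% higher up to 20 kb and 6.38% above 500 kb, where 61.7% were lower. Within bins of mean FPKM the share of neighbours that were higher varied less, between 51.1% (20 to 50 FPKM) and 68.0% (5 to 10 FPKM). All these shares count loci and not genes. A gene with many neighbours counts many times, and neighbours of the same gene were correlated, so the shares are descriptions.

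**Figure D4:**
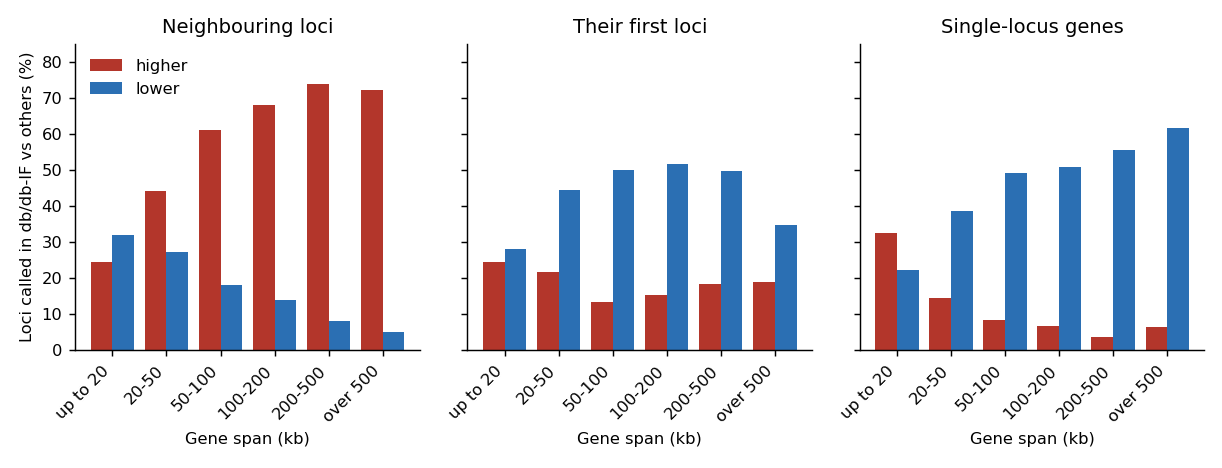
Share of loci called higher (red) and lower (blue) in db/db-IF mice against the others (vertical axis, %) by span of the gene on the chromosome (horizontal axis, kb), for neighbours, their first loci and genes on 1 locus. Neighbours of genes above 500 kb were higher in 72.1% of cases, whereas genes on 1 locus of that span were lower in 61.7%.

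Among the genes with the most members the share that was higher differed from gene to gene and did not follow their spans. Of 30 members of Rbfox1 28 were higher in db/db-IF, as were 27 of 29 of Magi2 and 23 of 35 of Kcnip4, and the members not counted here did not pass the test. Median log2 fold changes were 0.54 for Rbfox1, 0.74 for Magi2 and 0.47 for Kcnip4, while the first loci changed by 0.17 (adjusted p = 0.0984), -0.34 (adjusted p = 0.28) and -0.77 (adjusted p = 0.23). For Robo2 14 of 19 members were higher and 1 lower, and its first locus was higher by 0.37 (adjusted p = 0.0117). Lrrc4c, which spans 1314 kb, and Lrrtm4, which spans 791.3 kb, each had 9 of 19 higher and 1 lower. Rora, a nuclear receptor gene with 14 members, and Dip2c with 10 had every member called higher while their first loci were lower (-0.25, adjusted p = 0.00666, and -0.66, adjusted p = 0.00425). Rora and Dip2c were chosen for naming from their values.

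By mouse, the summed members of Magi2 lay between 920.4 and 1562 FPKM in db/m (median 1216), between 1118 and 2013 in db/db (median 1346) and between 1241 and 3047 in db/db-IF (median 2063). The groups overlapped widely although most db/db-IF mice were high. Those of Rbfox1 had medians of 160.6, 186.2 and 281.1 FPKM and those of Kcnip4 586.5, 686.9 and 836.9 in the 3 groups. The first locus of Kcnip4 was listed at 0 in at least 1 db/db-IF mouse.

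The members with the highest level were mostly of extra-sequence pairs and changed little. Ehmt2 (MSTRG.27791, chromosome 17) had 557.4 to 706.9 FPKM in db/m (median 608.2), 577 to 674.5 in db/db (median 626.1) and 751 to 906.2 in db/db-IF (median 829.3), with no overlap between db/db-IF and the rest. It was higher by 0.41 (SE 0.04, adjusted p = 3.1e-09, limma). Ehmt2 had other loci, among them a first locus listed at 0 in some mice, so these values are not levels of the gene. Rab3a, a GTPase of synaptic vesicles, had medians of 318.8, 338.3 and 396.4 FPKM and was higher by 0.26 (adjusted p = 9.44e-06), as was its first locus by 0.23 (adjusted p = 6.18e-05). Member and first locus of Rab3a moved together, and the ratio changed by 0.03 (adjusted p = 0.247).

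Others of the 12 highest members were not called or moved by small amounts. Hpca (hippocalcin, a neuronal calcium sensor) had medians of 458.3, 648.9 and 637 FPKM in the 3 groups and a change of 0.16 (adjusted p = 0.343). Clstn1, a calsyntenin of synapses, changed by 0.06 (adjusted p = 0.819), Mink1 by -0.11 (adjusted p = 0.19), Gm7335 by -0.18 (adjusted p = 0.0858) and Prrc2a by -0.10 (adjusted p = 0.093). Sf1, a splicing factor, was lower by 0.20 (adjusted p = 0.00114) and Ttc3, a ubiquitin ligase, by 0.12 (adjusted p = 0.000528). Atp6v1g2, a subunit of the vacuolar proton pump, was higher by 0.10 (adjusted p = 0.0425), a call that was lost when any of 14 mice was left out (0.09 to 0.10 in those fits). The neighbours among the 12 were Myo3a, an unconventional myosin (0.30, adjusted p = 0.0522), and the Magi2 locus MSTRG.6902 (0.23, adjusted p = 0.0677).

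Counts for lists of genes stand beside 57.1% higher and 14.4% lower over all members and 26.8% and 30.9% over all tested loci, and no test sets a list against other members. Of 106 members of ion channel genes, from 29 genes, 74 (69.8%) were higher in db/db-IF and 6 (5.66%) lower. Kcnip4 held 35 of these members, with 23 higher and 0 lower. Of the 141 other loci of the same list 20 were higher and 57 lower. Asic2, an acid-sensing sodium channel (MSTRG.17144, by 1.07, adjusted p = 1.9e-07), and Kcnip4 (MSTRG.7310, by 0.85, adjusted p = 9.43e-08) were among those that rose, beside Scn8a. Of 64 members of glutamate and GABA receptors and their scaffolds 43 (67.2%) were higher and 7 (10.9%) lower. The 3 with the smallest p were all lower: the scaffold Dlg2 (MSTRG.11086, by -0.46), the metabotropic receptor Grm7 (by -0.54) and the GABA-A subunit Gabra4 (by -0.40), which was above 1 FPKM in 10 mice of the other groups and in none of db/db-IF, so that it passed the filter where it was high.

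Adhesion and guidance genes held 166 members, of which 99 (59.6%) were higher and 11 (6.63%) lower, against 10 higher and 92 lower of 162 other loci of the list. Pcdh9, a protocadherin, had a member that fell by 0.83 (adjusted p = 3.13e-09), while members of the receptor phosphatase Ptprj and of Opcml, a cell adhesion protein, rose by 0.99 (adjusted p = 6.49e-07) and 0.81 (adjusted p = 8.66e-07). Of 88 members of the list of kinases and phosphatases 62 (70.5%) were higher and 6 (6.82%) lower. Prkce, a protein kinase C, was at 0.94 (adjusted p = 8.76e-08, limma). The list also held the phosphodiesterase Pde10a, which is neither a kinase nor a protein phosphatase. Its member MSTRG.23303 was at -0.88 (adjusted p = 2.09e-08, limma).

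Among 37 members of GTPase regulators 28 (75.7%) were higher and 2 (5.41%) lower, beside 57.1% and 14.4% over all members, with Rapgef2 at 0.79 (adjusted p = 4.72e-07) and Arhgef28 at 0.51 (adjusted p = 1.96e-07). Of 54 members of RNA binding and splicing genes 38 (70.4%) were higher and 7 (13.0%) lower. Rbfox1 alone held 30 of these 54, with 28 higher and 0 lower, so this share is mainly that of 1 gene. The Rbfox1 member MSTRG.22393 was at 0.72 (adjusted p = 3.87e-07) and Luc7l2 at -0.55 (adjusted p = 1.01e-07). Membrane lipid enzymes had 14 higher (66.7%) and 2 lower (9.52%) of 21, with Abhd16a, a lipase, at 0.30 (adjusted p = 3.9e-06) beside Cds2 and Plpp3.

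Of 67 members of chromatin and transcription genes 29 (43.3%) were higher and 19 (28.4%) lower, and the 3 with the smallest p were zinc finger genes that fell, Zfp950 (-0.49), Zfp738 (-0.49) and Zfp33b (-0.67). Vesicle and trafficking genes had 19 higher (52.8%) and 10 lower (27.8%) of 36. Among them 2 members of Rab40c were at 1.002 and 0.65, each above 1 FPKM in 10 db/db-IF mice and in 3 others, so that both passed the filter mainly where they were high. The ubiquitin system had 24 higher (51.1%) and 7 lower (14.9%) of 47, with Usp8, a deubiquitinase, at 0.53 (adjusted p = 4.46e-08) and Fbxo42 at 0.73. Fbxw11, at 0.70, was above 1 FPKM in 10 db/db-IF mice and 4 others and is given as a description.

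For mitochondrial proteins members and other loci leaned the same way. Of 14 members 9 were higher and 1 lower, and of 143 other loci 81 were higher and 19 lower. Slc25a33, a carrier of pyrimidine nucleotides, had members at 0.26 (adjusted p = 1.04e-07) and 0.24 (adjusted p = 9.43e-07) and a first locus at 0.26 (adjusted p = 1.09e-06), and Ndufa7, of respiratory complex I, was higher by 0.45 at the member (adjusted p = 9.84e-07) and by 0.40 at the first locus (adjusted p = 8.23e-05). These members belonged to extra-sequence pairs. Only 1 long noncoding RNA gene of the list, Ftx, had a member, which was higher by 0.33 (adjusted p = 1.18e-05).

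Some marker genes of other cell types had members. The astrocyte glutamate transporter Slc1a3 had a neighbour that was higher by 0.65 (adjusted p = 0.000122) while its first locus was lower by 0.43 (adjusted p = 1.94e-06), beside the lower astrocyte sum given above, whose part was not tested. The glutamine synthetase gene Glul had a distant member that was lower by 0.19 (adjusted p = 0.00219). None of the members of Mog (3, a myelin gene), Trem2 and Cldn5 passed the test, with changes of 1.10, 0.12 and 0.0044 for Mog, -0.0008 for Trem2 and -0.11 for Cldn5. Of 12 tested markers of endothelium and pericytes 10 were lower in db/db-IF, of 12 of microglia 6 and of 15 of oligodendrocytes 7, beside 30.9% of all tested loci. Summed FPKM of the endothelial and pericyte markers had medians of 423.9, 441.1 and 379.3 in the 3 groups. Those of the microglia markers were 292.3, 255.9 and 234.9. The oligodendrocyte markers had medians of 5195, 4802 and 5334 and thus were not lower in sum.

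Of 7 members of hippocampal subfield markers 5 were higher, among them 3 of Zbtb20, a transcription factor of pyramidal and granule cells, at 1.01 (adjusted p = 1.69e-05), 0.64 (adjusted p = 8.79e-05) and 0.51 (adjusted p = 0.000135). Its first locus was higher by 0.34 (adjusted p = 0.0223). Tcf7l2, a marker of the thalamus, had a member higher by 0.60 (adjusted p = 7.67e-05), and Ntng1 had a neighbour at 0.41 (adjusted p = 0.000232) and an extra-sequence member at -0.17 (adjusted p = 0.0549).

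Pairs of groups gave the same order of sizes. In db/db-IF against db/db 1111 members were higher and 300 lower, with 23.7% and 27.4% (51.1% in all) of the tested loci, and in db/db-IF against db/m 1308 were higher and 295 lower, with 26.2% and 29.4% (55.6% in all). In db/db against db/m 34 were higher and 25 lower, with 2.96% and 2.79% (5.75% in all) of the tested loci. These comparisons share their mice and are not independent. In db/db against db/m 54 members were higher when db/db-IF mouse 7 was left out of the common estimate of spread.

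The comparison of db/m with both db/db groups combined asked what distinguished the heterozygous controls. Of 2288 members 116 (5.07%) were higher in db/m and 635 (27.8%) lower, against 10.9% and 12.7% (23.6% in all) of the tested loci, with a median of -0.21. Ratios to the first locus were higher for 100 (4.37%) and lower for 361 (15.8%). The comparison group contains the db/db-IF mice, so the difference is not that of genotype alone. With the length slope in the fit 24 members (1.05%) were higher and 49 (2.14%) lower, against 3.35% and 5.22% of the tested loci. Without db/m mouse 2, 6 or 7 the count of lower members was 403, 377 or 310. Among the 16 mice of lower read quality it was 62 (2.71%, against 2.85% of the tested loci). Among the 15 of higher read quality it was 3 (0.131%, against 0.128%). Read quality followed the replicate number in each group, so it cannot be told apart from the order of the samples.

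Sv2c led the members that were higher in db/m, at 2.60 on the log2 scale (SE 0.53, adjusted p = 0.00134), from the values given above. Gnl1, a GTP binding protein gene with a member on an extra sequence, had 6.73 to 20.7 FPKM in db/m (median 13.0), 0 to 13.5 in db/db (median 8.55) and 0 to 14.8 in db/db-IF (median 4.91), so no db/m mouse came near 0. It was higher by 1.51 (SE 0.47, adjusted p = 0.0233), while the first locus changed by 0.02 (adjusted p = 0.781). The pseudogene Tmem181b-ps had medians of 2.89, 1.36 and 0.23 FPKM in the 3 groups and was higher by 0.98 (adjusted p = 0.00284). Its first locus carries 2 further names, Dynlt1f and Tmem181c-ps, and reads of such near copies may be shared.

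Tbc1d9 was higher by 0.83 (adjusted p = 0.0181), with medians of 4.62, 3.82 and 2.06 FPKM in the 3 groups, and Ephb2, a receptor tyrosine kinase of synapses, by 0.70 (adjusted p = 0.0332), with medians of 9.13, 4.97 and 3.11. The call of Ephb2 was lost without any of 5 db/m mice (0.63 to 0.66).

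Members lower in db/m included Cds2 (-0.89, adjusted p = 0.0233), Tmem131 (-0.89, adjusted p = 0.0118) and Camk2b (-0.86, adjusted p = 0.0134), whose values by group are given above for Cds2 and Camk2b. The call of Cds2 was lost without db/m mouse 6 (-0.76). Nlgn1 (MSTRG.3924) had 0 to 18.6 FPKM in db/m (median 14.1), 16.1 to 21.1 in db/db (median 17.9) and 9.56 to 20.4 in db/db-IF (median 13.0), with a fitted fall of 1.16 (adjusted p = 0.04). Without db/m mouse 2, 3 or 9 it was -0.87 and was not called, and the call was also lost without db/db mouse 10 (-1.14) or db/db-IF mouse 1 (-1.14) or 2 (-1.16), where the change stayed near its size. Kcnd3, a potassium channel of the A-type current, was at medians of 0.80, 2.87 and 1.37 FPKM and was lower by 0.85 (adjusted p = 0.0475), a call lost when any of 20 mice was left out (-0.96 to -0.72 over all mice left out in turn).

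The ratios with the smallest p in db/m against the others came from 6 genes, 3 in each direction. Aarsd1 had a member at 1.59 to 2.07 FPKM in db/m (median 1.86), 1.17 to 1.77 in db/db (median 1.398) and 1.16 to 1.66 in db/db-IF (median 1.32), and a first locus at medians of 21.8, 23.8 and 28.4. Member and first locus differed in opposite directions, and the ratio was higher in db/m by 0.49 (SE 0.08, adjusted p = 0.000119). Fam208b (0.44, adjusted p = 0.000314) and Alg2, a mannosyltransferase of N-glycan synthesis (0.39, adjusted p = 0.000554), followed. Lower in db/m were the ratios of Rapgefl1 (-0.42, adjusted p = 2.33e-05), of the death-associated kinase Dapk1 (-0.98, adjusted p = 0.000432) and of Pde10a (MSTRG.23309, -0.67, adjusted p = 0.00056).

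The Dapk1 member separated db/m from the other mice. It ran from 13.8 to 19.4 FPKM in db/m mice (median 18.1), between 21.4 and 30.4 in db/db mice (median 25.2) and between 29.7 and 48.1 in db/db-IF mice (median 36.1). The db/m range lay below both others, and db/db and db/db-IF overlapped only at their ends. The member was lower in db/m by 0.75 (SE 0.10, adjusted p = 1.23e-05), and the first locus, with medians of 128.8, 117.8 and 104, changed by 0.23 (adjusted p = 0.115). Rapgefl1 had a db/m range of 5.02 to 7.77 FPKM, against 7.27 to 9.53 in db/db and 6.71 to 9.66 in db/db-IF.

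Unfasted db/db mice against the other 2 groups combined gave few calls. The comparison group contains the db/db-IF mice, so a difference is not that of diabetes alone. Of 2288 members 68 (2.97%) were higher and 34 (1.49%) lower, against 5.82% and 3.69% (9.51% in all) of the tested loci, and of the ratios 24 (1.05%) were higher and 59 (2.58%) lower. Without 1 mouse at a time the higher count ran from 36 (without db/db mouse 3) to 81, and it was also lower by over 1.5 times without db/db mouse 1 (41), 2 (38), 7 (39) or 9 (37). The lower count fell to 15 without db/db mouse 1, 7 or 9, to 18 without mouse 2 or 3 and to 20 without mouse 5.

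Of the 5 members with the largest rise in db/db, Nectin3 and Shisa6 kept their call without any single mouse. Nectin3, an adhesion protein of synaptic junctions, had 17.3 to 24.4 FPKM in db/m (median 18.3), 22.9 to 35.2 in db/db (median 26.8) and 9.11 to 21.5 in db/db-IF (median 14.1). The db/db values lay above all db/db-IF values and overlapped db/m at the lower end. The difference was 0.62 (SE 0.11, adjusted p = 0.000906). Shisa6, an auxiliary protein of AMPA receptors, had 65.2 to 104.7 FPKM in db/m (median 89.4), 97.4 to 122.6 in db/db (median 107.1) and 39 to 86.1 in db/db-IF (median 66.3) and differed by 0.54 (SE 0.13, adjusted p = 0.00823), while its first locus changed by -0.06 (adjusted p = 0.856).

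Kcnd3 was higher in db/db by 1.04 (adjusted p = 0.0312), Mmp16, a membrane metalloproteinase, by 0.79 (adjusted p = 0.036) and Ctns, a lysosomal cystine transporter, by 0.80 (adjusted p = 0.0479). These 3 calls were lost without single mice, without db/db mouse 4 (0.80) or 8 (0.82) for Kcnd3, without any of 6 db/db mice for Mmp16 (0.74 to 0.79) and without any of 19 mice for Ctns (0.73 to 0.84 over all). Ctns was listed at 0 in at least 1 mouse of db/m and of db/db-IF, with medians of 3.08, 3.34 and 0.61 FPKM in the 3 groups. Its median in db/db was thus close to that in db/m and far from that in db/db-IF.

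Among the 5 members with the largest fall in db/db, Pphln1 (-0.88, adjusted p = 0.0122) and Pde10a (MSTRG.23317, -0.61, adjusted p = 0.00227) kept their calls without any single mouse. The Pde10a locus had 3.63 to 6.91 FPKM in db/m (median 5.45), 2.19 to 4.02 in db/db (median 2.90) and 3.32 to 8.83 in db/db-IF (median 5.52), so db/db was low with overlap at its upper end. Scn8a (-0.78, adjusted p = 0.0456), Lrrc4c (MSTRG.2717, -0.74, adjusted p = 0.0299) and Reln, the extracellular guidance protein (-0.62, adjusted p = 0.0373), were also lower. For Scn8a the db/m and db/db ranges given above overlapped over most of their extent, while db/db-IF was high. Lrrc4c lost its call without db/db mouse 1 (-0.72), 7 (-0.68) or 9 (-0.69), Scn8a when any of 17 mice was left out (-0.86 to -0.70 over all) and Reln when any of 10 was left out (-0.67 to -0.57 over all).

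The ratios with the smallest p in db/db against the others also came from 6 genes. Ppargc1a, a coactivator of mitochondrial biogenesis, had a member at medians of 1.38, 1.26 and 2.52 FPKM and a first locus at 9.04, 11.1 and 12.9 in the 3 groups, and the ratio was lower in db/db by 0.44 (adjusted p = 0.000475). The medians of this member in db/m and db/db were close, and that in db/db-IF was higher. Kcnd2, the partner of Kcnd3 in A-type channels, had a ratio lower by 0.39 (adjusted p = 0.000475) and Farp2 one lower by 0.47 (adjusted p = 0.000485). Higher in db/db were the ratios of Ttll11, a tubulin polyglutamylase (0.33, adjusted p = 0.000475), of Kcnd3 (1.60, adjusted p = 0.00657) and of Rgs20 (MSTRG.34, 0.23, adjusted p = 0.00728).

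The extra-sequence pairs offered a different measure, the share of a pair's summed FPKM that fell on the extra copy. In 337 pairs exactly 1 of the 2 loci lay on a chromosome, and 298 of these had a summed mean of at least 10 FPKM. In 172 of the 337 pairs the extra copy was the first locus. In 109 of the 298 pairs the share ranged over at most 5 percentage points across the 31 mice, and in 84 it ranged over more than 30. Where the share varied so widely, the median SD between mice on the log2 scale was 0.97 at the extra copy, 0.54 at the chromosomal copy and 0.49 for their sum. The sum varied less than both copies in 26 of the 84 pairs.

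Constant pairs had nearly the same split in every mouse. The share of the extra copy was 92.7% to 93.2% for Ska2 and 67.6% to 68.3% for Ppm1e, a protein phosphatase, both of chromosome 11. For Tubb5, a tubulin, it was 83.6% to 84.4%, for Rab3a 82.1% to 84.3%, for Ttc3 77.3% to 80.6% and for the glycolytic enzyme Eno1 8.4% to 10.8%.

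Stepped pairs fell into bands with gaps of more than 8 percentage points, a width chosen after the values were seen. For Akap1, a mitochondrial anchor of protein kinase A, the share of the extra copy was 0% to 2.6% in 4 mice, 51.5% to 54.8% in 16 and 91.9% to 98.6% in 11. Scpep1, a peptidase gene numbered close to Akap1 on both sequences, had bands of 2.6% to 10.4%, 62.5% to 69.6% and 98.6% to 100%, with the same mice in each band for 31 of 31. The lowest band held 1 db/m mouse and 3 db/db-IF mice, the middle band 6 db/m mice, 8 db/db mice and 2 db/db-IF mice and the highest 4, 2 and 5. Each group therefore had mice in more than 1 band.

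A second set lay on chromosome 1. Lancl1 had its extra copy at 45.4% in 1 mouse, at 62.9% to 65.1% in 8 and at 77.5% to 83.5% in 22, and Acadl, the long-chain acyl-CoA dehydrogenase, at 0%, 10.7% to 12.7% and 30.7% to 36.3% in the same mice, 31 of 31. The band of 8 held 6 db/m mice, 1 db/db mouse and 1 db/db-IF mouse, and that of 22 held 5, 9 and 8. For Lancl1 the SD on the log2 scale was 0.23 at the extra copy and 0.41 at the chromosomal copy and 0.07 for their sum.

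Stepped pairs were also seen on other chromosomes. Fgfr1op2 on chromosome 6 had shares of 0.6% to 4.2% in 4 mice, all db/db-IF, of 43.3% to 45.8% in 13 (4 db/m, 7 db/db, 2 db/db-IF) and of 92.4% to 99.4% in 14 (7, 3 and 4). Man1a2, a mannosidase on chromosome 3, had shares of 12.6% to 13.0% in 28 mice, 57.7% in 1 db/m mouse and 100% in 2 db/db-IF mice. Ehmt2 had its first locus, an extra copy, listed at 0 in 5 mice (3 db/m, 1 db/db, 1 db/db-IF) and at 92.3% to 94.2% of the pair in the other 26. The other locus of this pair was MSTRG.23797. The Ehmt2 member MSTRG.27791 described above is not in the pair, so the share is not that of all loci of the gene. The files do not state the genotype of a mouse at these genes.

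**Figure D5:**
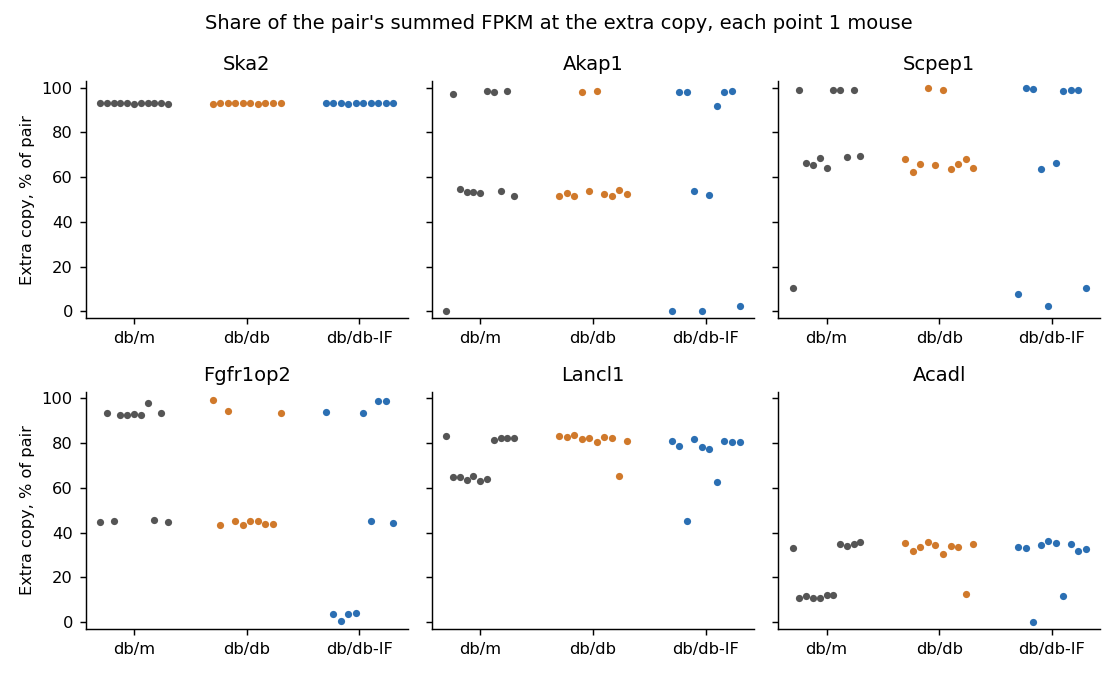
Share of a pair's summed FPKM at the copy on an extra sequence (vertical axis, %) for 6 genes, each point 1 mouse, by group along the horizontal axis. Ska2 stays between 92.7% and 93.2%, while Akap1, Scpep1 and Fgfr1op2 fall into 3 bands and Lancl1 and Acadl into 3 bands shared by the same mice.

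In 4 members that fell the split itself varied: across mice the extra copy held 0% to 61.5% of the pair in Auts2, 0% to 94.2% in Hipk1, 0% to 39.4% in Zfp37 and 0% to 99.9% in Tm7sf3. For Hipk1 the SD of the sum was 0.36, against 1.62 at the extra copy. For Slc30a1 and Ets2 the split was nearly constant wherever the sum was above 0, at 53.2% to 53.8% and 22.7% to 23.4%.

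Of the 43 distant members 10 (23.3%) were higher and 15 (34.9%) lower in db/db-IF, shares near the 26.8% and 30.9% of all tested loci. They included Ptma, a prothymosin (119.8 FPKM against 158.1 at the first locus), Tuba1b, a tubulin (112.7 against 230.3), and the cytochrome c gene Cycs (109.4 against 201.6), which have processed copies elsewhere in the genome, so that reads may be shared between them. None of the 3 was called in db/db-IF, with changes of -0.10 (adjusted p = 0.0525), -0.21 (adjusted p = 0.803) and 0.79 (adjusted p = 0.508). Trmt112, a partner of methyltransferases, had a distant member of 2.10 FPKM that rose by 0.40 (adjusted p = 8.13e-09) as its first locus did by 0.34. The distant members named here were chosen after their values were seen.

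The filter on low values admitted members by the number of mice above 1 FPKM. Just inside it, with exactly 10 mice, stood 26 loci, among them Rgs20 (MSTRG.35, mean 1.07 FPKM, with 8 db/db-IF mice and 1 mouse of each other group above 1) and Reep1 (mean 1.03; 2 db/db and 8 db/db-IF mice). Just outside, with exactly 9, stood 29 loci, among them Pms1 (mean 1.11) and Btrc (mean 1.06). Rgs20 and Reep1 passed mainly through db/db-IF mice, so counts of members near the limit that were higher there are descriptions only. Members above 20 FPKM, which lay far from the limit, were higher in 51.1% (20 to 50 FPKM) and 54.5% (above 50 FPKM) of neighbours.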

How the data were processed

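Hippocampal RNA of 31 mice was sequenced by the authors on a BGI-500 platform. Per the study's methods and processing notes, the authors used Trimmomatic 0.38 for trimming, HISAT2 for alignment (GRCm38.p6) and StringTie 1.3.4d to merge transcripts, and deposited 1 FPKM value per locus and mouse. FPKM values were not scaled between mice, and without read counts the depth behind a value is unknown, so errors are those between mice. Values were analysed as log2(FPKM + 1), which understates changes of low loci. The test was that of limma 3.58.1 in R 4.3.3 on 17139 loci (above 1 FPKM in at least 10 mice), two-sided, with a trend of the prior spread. Loci were called at an adjusted p under 0.05 (Benjamini-Hochberg). Each group was set against the other 2 combined, and pairs were taken from 1 fit of 3 means. Ratios of member to first locus were adjusted together with all loci. The fit was tested on simulated data with independent normal noise at each locus. Those data lack the shifts that neighbours share and the values of exactly 0, so no conclusion is drawn from them. Groups came from the sample labels.

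Gene spans and coordinates came from RefSeq and transcript lengths from GENCODE, both on GRCm38. Named members were the 12 highest, the 6 names with most members, the 10 (5 for db/m and db/db) largest changes in each direction, the 6 (3) smallest p of ratios in each direction, the 3 smallest p per gene list and loci at the filter limit; 1 of them is not reported here. The members, lists and rules were chosen with earlier results of these data known. Alternatives were another pseudocount, filters, scalings, array weights, read-quality and length terms, a replicate block, a stricter threshold, another choice of first locus and leaving out each mouse; 4 more were added after seeing the data. The split of each group by read quality came from the base quality of the reads in the study's supplement. In every group the mice of lower read quality had the lower replicate numbers, and those of higher read quality the higher ones. Read quality and the order of the samples therefore cannot be told apart. Figures were drawn in Python 3.11.15 with matplotlib 3.10.9.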

Additional observations from a re-analysis of the deposited data

Results flagged for a closer look

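Single mice stood far from the rest of their group in 18 of 218 checks (8.26%) over 109 named members in the 2 groups of 10 mice, where the gap to the nearest mouse, as a share of the range, exceeded Dixon's 95% critical value. Chance gives about 1 in 20. Mouse 7 of db/db-IF accounted for 7 and mouse 10 of db/db for 4, and no cause was tested.

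In db/db-IF mouse 7, members were high for Rab3a (475.3 FPKM, nearest 418.8), Abhd16a (15.1, nearest 12.6) and Trem2 (4.14, nearest 3.37). They were low for Sf1 (183.1, nearest 244.8), Gm7335 (105.2, nearest 186.3), Fam208b (19.8, nearest 31.1) and Grm7 (10.5, nearest 15.3).

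In db/db mouse 10, the member of Hipk1 was listed at 0 (nearest 35.3 FPKM), and those of Naaladl2 (22.3, nearest 18.6), Grb2 (9.18, nearest 7.35) and Kcnip4 (MSTRG.7310, 5.48, nearest 3.75) were high.

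Other mice were apart in 1 member each. Auts2 was listed at 0 in db/db mouse 5 (nearest 27.6 FPKM). Nectin3 was at 35.2 in db/db mouse 9 (nearest 28.8), Pphln1 at 3.73 in db/db mouse 8 (nearest 1.88) and Ttll11 at 3.50 in db/db mouse 4 (nearest 4.66). In db/db-IF, Tmem181b-ps was at 1.31 in mouse 8 (nearest 0.38), Kcnd3 at 7.07 in mouse 2 (nearest 3.61) and Pde10a (MSTRG.23309) at 5.396 in mouse 11 (nearest 3.28).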

How the results depend on the processing

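Precision rests on the spread between mice, since counts are not given. Calls in db/db-IF kept their side of the threshold under most settings, but not with the length slope or among mice of higher read quality, and those in db/m and db/db moved with many settings. The cause was not tested, and read quality cannot be told apart from the order of the replicate numbers. Counts below are of members higher and lower, by limma at an adjusted p under 0.05 unless stated.

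With the length slope in the fit, db/db-IF against the others gave 3 and 2 (ratios 2 and 1), db/m against the others 24 and 49 (ratios 24 and 14), db/db-IF against db/db 7 and 6 and against db/m 14 and 4. Shares of all tested loci were 0.712% and 0.158%, 3.35% and 5.22%, 1.35% and 0.467%, and 1.66% and 0.776%, respectively. The ratios lower in db/db were then 39 and members higher in db/db against db/m 65. Directions turned in db/db-IF for Hpca (-0.12), Clstn1 (-0.47), Rab3a (-0.018), Sf1 (0.0945), Magi2 MSTRG.6902 (-0.0051), Gm7335 (0.15), Atp6v1g2 (-0.0292), Sv2c (0.0656), Slc30a1 (0.18), Ets2 (0.58), Fgf14 MSTRG.21307 (-0.056), Slc1a3 (-0.015), Glul (0.0419), Mog MSTRG.27502 (-0.0181) and the extra-sequence member of Ntng1 (0.25), and in db/db for Rgs20 MSTRG.34 (0.0158).

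Among the mice of higher read quality (15) db/db-IF gave 498 and 195 (ratios 642 and 135), against db/db 156 and 140 and against db/m 278 and 136, with Mink1 at 0.0428 and Trem2 at 0.0049. In db/db-IF against the others these were 21.8% and 8.52% of members, beside 13.5% and 18.4% of all tested loci. Against db/db the shares were 6.82% and 6.12%, beside 8.13% and 12.2%, so members were not more often higher than all loci. Against db/m they were 12.2% and 5.94%, beside 9.53% and 13.2%. There db/m gave 1 and 3, with 0 and 1 ratios (66 and 101 at an unadjusted p under 0.05). For db/db the counts were 0 and 0 (81 and 51 unadjusted), its ratios 0 and 0 (44 and 126 unadjusted) and db/db against db/m 0 and 0 (51 and 35 unadjusted). Among those of lower read quality (16) db/m gave 29 and 62 (ratios 17 and 35), db/db 2 and 0 (90 and 95 unadjusted), its ratios 0 and 1 (65 and 147 unadjusted) and db/db against db/m 9 and 8, with Clstn1 at -0.25 and Mog MSTRG.27502 at -0.0524.

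The replicate numbers did not pair the mice: over 29 same-numbered pairs the correlation of deviations ran from -0.27 to 0.16 (median -0.02), with 2 above 0.1, and 2 of 31 mice correlated best with their own number. With a replicate block db/m gave 401 lower (ratios 50 and 154), db/db 15 and 7 (ratios 4 and 8) and db/db against db/m 20 and 10, with Clstn1 at -0.0186 and Mog MSTRG.27502 at -0.023.

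At an adjusted p under 0.01 db/m gave 39 and 81 (ratios 25 and 34), db/db 21 and 9 (ratios 4 and 11) and db/db against db/m 16 and 9. With array weights the ratios in db/db were 40 and 92, db/db against db/m gave 86 and 43, and Mog MSTRG.27502 was at -0.0627. With an FPKM above 1 in all 31 mice, ratios higher in db/db-IF were 732 and members higher against db/db 733, of fewer members. Without a filter, 22 members were lower and 15 ratios higher in db/db. Trem2 was at 0.0021 with a pseudocount of 0.1 and at 0.035 with equal medians, and Mog MSTRG.27502 at -0.0021 with quantile normalization. Without db/db-IF mouse 7 and db/db mouse 10, a choice made after seeing the data, db/m gave 364 lower (ratios 65 and 198), with Mog MSTRG.27502 at -0.0311.

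Leaving out each mouse in turn, higher and lower counts ran from 1216 to 1367 and 303 to 343 in db/db-IF. For db/m lower counts ran from 310 to 834, ratios higher from 64 to 128 and ratios lower from 174 to 515, with ratios lower at 219, 204 and 174 without db/m mouse 2, 6 and 7 and ratios higher at 64 without mouse 7. For db/db counts ran from 36 to 81 and from 15 to 51, ratios higher from 8 to 33 and lower from 23 to 84. Ratios higher were 10, 13, 14, 9, 15 and 8 without db/db mouse 1, 2, 3, 7, 8 and 9 and 15 without db/db-IF mouse 5, 9 or 10, and ratios lower were 25, 35, 34, 39, 28 and 23 without db/db mouse 1, 2, 3, 5, 7 and 9. Members higher in db/db against db/m ran from 28 to 54. Mog MSTRG.27502 ran from -0.0326 to 0.0351 and Trem2 from -0.0333 to 0.0186. Of 98 named calls 82 held without any mouse and 16 were lost without at least 1.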
